A study of Homo sapiens with 24 samples.

Results

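Histone genes were followed as a family in gene counts from 3 human acute myeloid leukemia lines, namely UT-7, TF-1 and UCSD-AML1, given vehicle or cyclocreatine. The members are the symbols of the count tables that begin with HIST1, HIST2, HIST3, HIST4, H1F, H2AF or H3F and reach at least 0.5 CPM, the count scaled for library size, in at least 4 libraries. Of 25728 symbols in each table, 91 carry these prefixes and 41 were retained. They comprise 31 replication-dependent genes of the histone clusters (3 H1, 7 H2A, 10 H2B, 6 H3 and 5 H4), 8 replacement histone genes, H2AFX, and H1FX-AS1, an antisense RNA that the prefix takes in and that is no histone gene. Among the 50 symbols not retained were 35 replication-dependent and 7 replacement genes, 4 testis genes and 4 pseudogenes.

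The threshold on CPM fell within a continuum of low counts. Just inside it, HIST1H2BF and HIST1H4J passed in 4 libraries and HIST1H2AI in 5. Just outside it, HIST1H3A, HIST1H2AH and HIST1H2BL passed in 3 libraries each. Of the 41 symbols, 37 also passed the count filter of the test described here (27 replication-dependent, 8 replacement, H2AFX and H1FX-AS1). HIST1H2AI, HIST1H4E, HIST1H4I and HIST1H4J did not, with at most 13 counts in any library.

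Each line had 4 vehicle libraries and 4 libraries from cells given 3 mM cyclocreatine, and the labels give 24 h for both arms. The lines come from acute myeloid leukemia and are described by the series as driven by EVI1, a transcription factor. Cyclocreatine is a creatine analog that creatine kinase can phosphorylate. The labels call the treatment quadruplicate without stating whether the 4 libraries came from separate cultures, so every p-value measures the spread between these libraries, which may be technical.

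Library totals ranged from 12794998 to 21200662 counts, of which all 91 symbols with the histone prefixes took 0.132% to 0.265%. In these bulk libraries, fewer cells with a transcript and less of it per cell cannot be told apart. The hematopoietic markers PTPRC, KIT, GATA2, TAL1, MYB, RUNX1 and LMO2 were above 100 CPM in all 6 group means. Others were lower in some groups. Under vehicle, GATA1 averaged 21.0 CPM and CD33 51.1 CPM in UCSD-AML1, and SPI1 averaged 94.4 CPM in TF-1. The epithelial keratins KRT5 and KRT14 were at 0 in every library. Some other genes of non-hematopoietic tissues had low counts under vehicle, with ALB at 6.67 and EPCAM at 0.860 CPM in TF-1 and COL1A1 at 1.84 CPM in UCSD-AML1. CD34 was low in UT-7 (2.19 CPM under vehicle), and the endothelial gene CDH5 reached 259 CPM in UCSD-AML1 under vehicle. MECOM, the gene that encodes EVI1, averaged 412 CPM in UCSD-AML1 under vehicle but 6.34 in UT-7 and 13.0 in TF-1. The first cyclocreatine library of TF-1 stood above its 3 group mates for both histone sums used here, 181 against 148 to 155 CPM for replication-dependent members and 1617 against 1387 to 1435 CPM for replacement members. Across genes it also stood apart from these mates, at a chi-square of counts per degree of freedom of 15.8 to 19.3. Every other pair of group mates lay at 4.04 or below. TF-1 effects given here include this library unless its removal is stated. Its removal left 1 replication-dependent member higher and 5 lower in TF-1, against 1 and 6 with it. Only 3 of those 6 kept their call (HIST1H1C, HIST1H2AC and HIST3H2A), so the 5 include 2 members not called with all libraries.

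Replication-dependent histone genes supply the bulk of new chromatin during S phase. Their transcripts normally end in a conserved stem-loop, bound by SLBP, in place of a polyA tail, and are degraded when DNA synthesis stops. Replacement histones such as H3.3 (H3F3A, H3F3B), H2A.Z (H2AFZ, H2AFV), macroH2A (H2AFY, H2AFY2) and the linker histones H1.0 (H1F0) and H1X (H1FX) come from single genes with polyadenylated mRNAs, are made outside S phase as well, and often increase in share as cells stop dividing. H2AFX encodes H2A.X, which is phosphorylated near DNA breaks, and its gene yields both stem-loop and polyadenylated mRNAs. No source used here states whether polyA RNA was selected.

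The 16-base histone stem-loop motif was searched on the transcript strand of GENCODE v29 coding transcripts. It was present in 19 of the 22 retained replication-dependent genes whose models extend beyond the coding sequence, in none of the 8 replacement genes, and in H2AFX. Among all 19669 genes with a coding transcript, 0.559% held it. In 15 of the 19 genes the annotated transcript ran more than 100 bases past the stem-loop, by 1729 bases in HIST2H2BE and 1114 in HIST1H2AC. The windows below, 26 bases each with the stem-loop in capitals, are shown because they mark the feature that separates the 2 classes of transcript.
HIST2H2BE stem-loop window: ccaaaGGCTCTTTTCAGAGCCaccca
HIST1H2AC stem-loop window: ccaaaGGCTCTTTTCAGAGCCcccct
HIST1H2BD stem-loop window: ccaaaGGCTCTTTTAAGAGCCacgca
HIST3H2A stem-loop window: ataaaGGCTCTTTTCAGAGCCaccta
HIST1H2BG stem-loop window: tcaaaGGCTCTTTTCAGAGCCactca
H2AFX stem-loop window: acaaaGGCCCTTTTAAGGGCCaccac

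Promoters were taken from RefSeq (assembly GRCh38.p14; 250 bases before to 50 after the annotated start), and 38 of the 41 symbols had one. H1F0, HIST1H4C and H1FX-AS1 had no entry. Both strands were searched for the octamer ATTTGCAT, which Oct-1 binds in H2B genes, for CCAAT, for TATAAA and for the H1 box AAACACA. The motifs were allowed to overlap, and some TATAAA matches on opposite strands share bases. The octamer occurred in 8 of 10 H2B promoters and in 13 of 30 replication-dependent promoters, against 1.77% of 35116 RefSeq promoters. CCAAT occurred in 27 of 30 against 34.6%, and TATAAA in 18 of 30 against 11.5%. The H1 box occurred in the promoters of all 3 clustered H1 genes against 5.64%. The promoters below belong to the H2B genes and the linker histone genes on which the results turn. Capitals mark the matches.
HIST2H2BE promoter (chr1:149886633-149886932, minus strand): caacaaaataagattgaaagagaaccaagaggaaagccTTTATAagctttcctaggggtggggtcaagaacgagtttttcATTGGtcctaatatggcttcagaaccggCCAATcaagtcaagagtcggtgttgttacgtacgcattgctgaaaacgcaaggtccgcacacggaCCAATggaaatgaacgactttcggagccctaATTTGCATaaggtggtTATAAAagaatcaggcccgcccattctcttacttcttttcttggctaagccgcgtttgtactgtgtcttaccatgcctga
HIST1H2BK promoter (chr6:27146806-27147105, minus strand): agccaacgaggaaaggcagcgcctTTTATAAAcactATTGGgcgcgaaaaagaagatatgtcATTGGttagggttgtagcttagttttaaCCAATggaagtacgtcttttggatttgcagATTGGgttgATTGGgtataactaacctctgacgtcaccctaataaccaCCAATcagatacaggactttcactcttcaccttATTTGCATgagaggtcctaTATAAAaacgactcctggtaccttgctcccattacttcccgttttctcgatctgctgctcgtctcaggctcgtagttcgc
HIST1H2BJ promoter (chr6:27132746-27133045, minus strand): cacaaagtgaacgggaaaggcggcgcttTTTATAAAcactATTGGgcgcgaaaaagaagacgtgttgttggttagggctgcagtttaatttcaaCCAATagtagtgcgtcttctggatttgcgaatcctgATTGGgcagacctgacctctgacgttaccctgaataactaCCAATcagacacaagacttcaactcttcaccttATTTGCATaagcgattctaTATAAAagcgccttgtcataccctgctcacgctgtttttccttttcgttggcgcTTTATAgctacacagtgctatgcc
HIST1H2BD promoter (chr6:26157872-26158171, plus strand): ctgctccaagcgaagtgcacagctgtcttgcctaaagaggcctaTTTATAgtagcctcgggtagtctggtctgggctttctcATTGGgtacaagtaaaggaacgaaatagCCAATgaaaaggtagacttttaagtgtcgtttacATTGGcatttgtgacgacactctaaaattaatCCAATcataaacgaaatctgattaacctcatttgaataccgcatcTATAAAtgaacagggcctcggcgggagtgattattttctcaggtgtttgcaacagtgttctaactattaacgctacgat
HIST1H1C promoter (chr6:26056421-26056720, minus strand): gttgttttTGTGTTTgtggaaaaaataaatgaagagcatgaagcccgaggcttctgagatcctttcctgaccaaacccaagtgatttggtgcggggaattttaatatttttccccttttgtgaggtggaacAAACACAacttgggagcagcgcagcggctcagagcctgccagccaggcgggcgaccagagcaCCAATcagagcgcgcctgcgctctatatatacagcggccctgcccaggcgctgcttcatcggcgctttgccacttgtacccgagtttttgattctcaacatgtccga
H1FX promoter (chr3:129316237-129316536, minus strand): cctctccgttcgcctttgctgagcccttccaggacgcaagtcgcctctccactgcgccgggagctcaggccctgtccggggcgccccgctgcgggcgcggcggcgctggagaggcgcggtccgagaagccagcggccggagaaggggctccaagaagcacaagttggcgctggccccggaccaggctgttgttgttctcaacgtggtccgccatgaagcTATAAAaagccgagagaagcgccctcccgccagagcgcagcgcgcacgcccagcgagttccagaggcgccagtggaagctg
The octamer began 46, 49 and 47 bases upstream of the start in HIST2H2BE, HIST1H2BK and HIST1H2BJ. HIST1H2BD holds CCAAT and TATAAA but no exact octamer in this window, HIST1H1C holds 2 matches to the H1 box, and H1FX holds TATAAA only. The retained set holds 5 pairs of H2A and H2B genes that sit head to head with promoter windows that overlap by 253 to 268 bases and share 1 octamer, namely HIST2H2BE with HIST2H2AC, HIST1H2BC with HIST1H2AC, HIST1H2BG with HIST1H2AE, HIST1H2BJ with HIST1H2AG, and HIST1H2BO with HIST1H2AM.

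Levels are given first, since the lines differed before treatment. Replacement histones made up most histone counts in every line, and replication-dependent counts were low and concentrated in a few genes. Whether polyA RNA was selected is not stated. These levels and the class shares therefore describe counted reads and not the histone mRNA content of the cells. HIST1H2BK averaged 35.004 CPM over all 24 libraries and took 37.6% of the replication-dependent sum, followed by HIST1H1C at 22.9, HIST1H2AC at 7.12, HIST1H2BD at 5.44, HIST2H2BE at 3.92 and HIST3H2A at 2.28 CPM. These 6 genes held 82.5% of the sum, and the other 25 each averaged under 2 CPM. Counts of 16 of the 91 symbols were 0 in every library, among them 8 replication-dependent genes. HIST2H2AA3 and HIST2H2AA4, HIST2H4A and HIST2H4B, and HIST2H3A and HIST2H3C are near-identical pairs and were all at 0, and H3F3A was listed with 1 count in total while H3F3B, which encodes the same protein, had 249 to 382 CPM in every library. Copies that share sequence can lose their reads to the counting step, so these zeros set no upper limit. Reads lost in this way are missing from the class sums and shares.

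Under vehicle, TF-1 had the highest replication-dependent CPM and UCSD-AML1 the lowest. The 4 vehicle libraries of TF-1 summed to 149, 169, 166 and 162 CPM over the 31 genes, those of UT-7 to 68.8, 69.7, 63.5 and 68.9, and those of UCSD-AML1 to 29.5, 29.7, 25.6 and 29.5. No 2 lines overlapped. The replacement sum ran in another order, from 2377 ± 46.0 CPM in UCSD-AML1 through 1648 ± 28.9 in TF-1 down to 1136 ± 8.81 in UT-7 (SD, n = 4 each). Replication-dependent genes therefore made up 8.92% ± 0.335 of the counts of the 2 classes in TF-1, 5.63% ± 0.220 for UT-7 and 1.19% ± 0.0782 for UCSD-AML1.

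**Figure D1:**
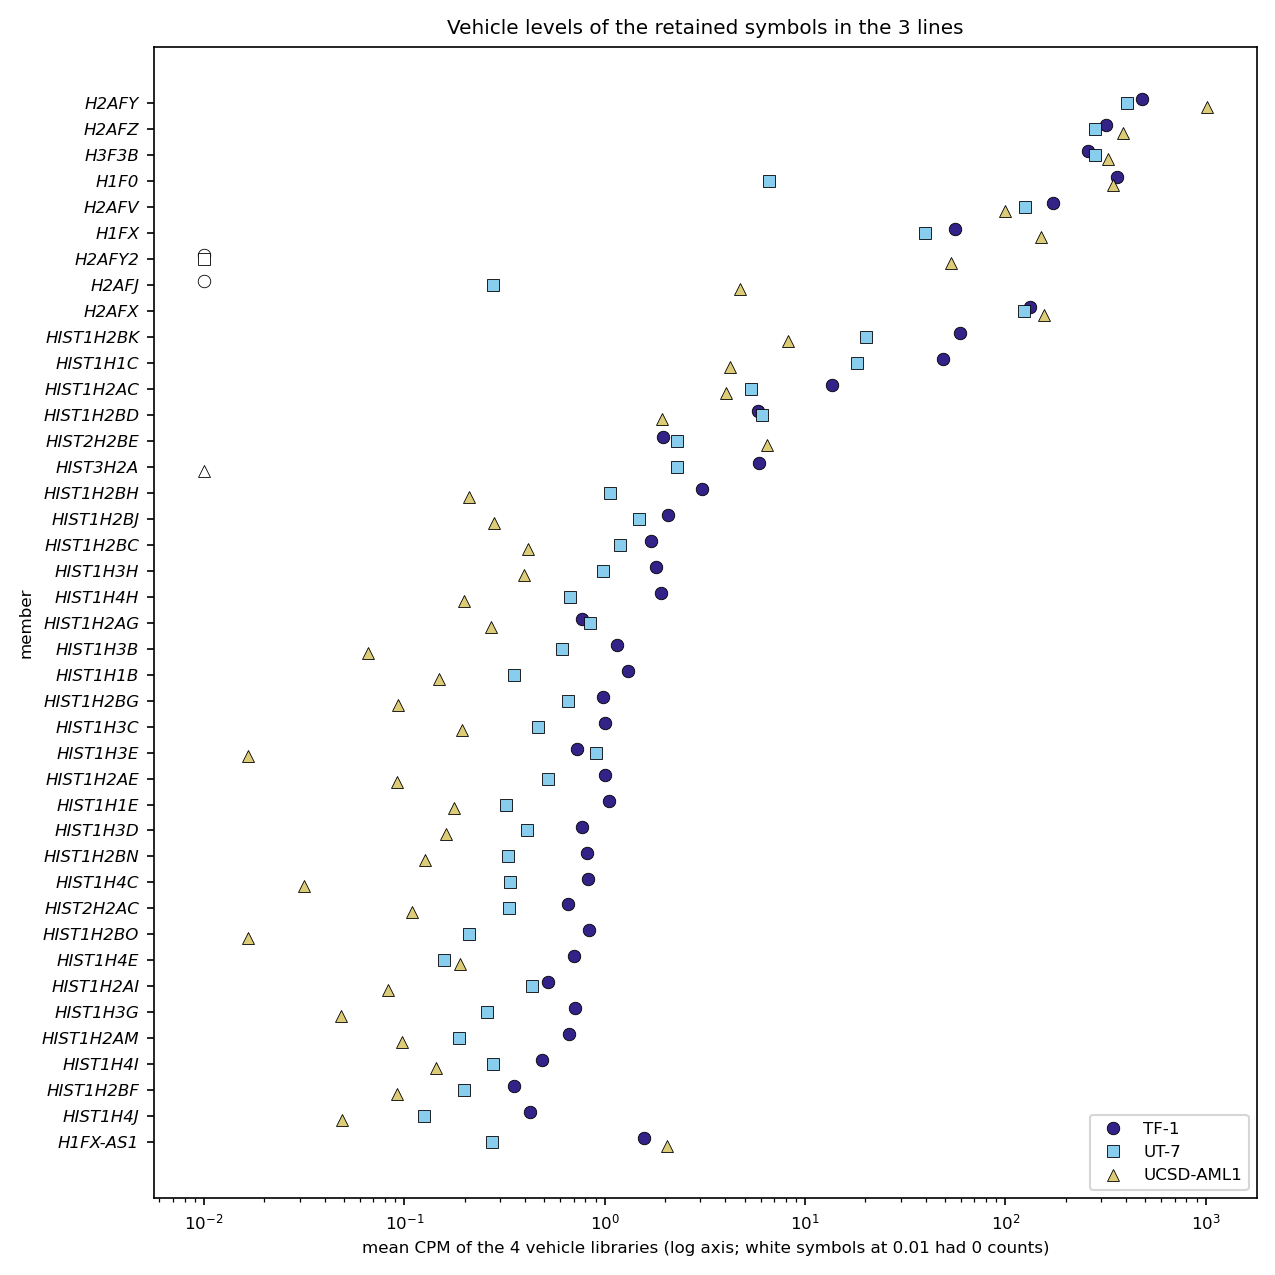
Mean CPM of the 4 vehicle libraries on a log axis for each of the 41 retained symbols, by line. White symbols at the left edge had 0 counts in all 4 libraries. Most replacement genes and H2AFX lie to the right, but H2AFJ, H1F0 in UT-7 and the H2AFY2 values of TF-1 and UT-7 do not, and H1FX in TF-1 lies just below HIST1H2BK. UCSD-AML1 lies below TF-1 for nearly every replication-dependent gene, with HIST2H2BE the exception.

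The tests gave the same order. Members were retained for reaching 0.5 CPM in any 4 libraries, so a gene near 0 in a given line could enter through another. The counts and medians by line are therefore partly set by that rule. Against TF-1, UT-7 had 0 replication-dependent members higher and 16 lower of 27 tested (median log2 difference -1.14, edgeR quasi-likelihood test, adjusted over all 14588 genes tested). DESeq2 and limma-voom also placed 0 higher, as did an unadjusted p under 0.05. Of all genes, 79.7% were called in that comparison (38.7% higher, 41.0% lower), and the all-gene median was -0.01. UCSD-AML1 had 1 member higher and 26 lower against TF-1 (median -2.84, beside 84.0% of all genes called, 43.3% higher and 40.6% lower), and 1 higher and 19 lower against UT-7 (median -1.62, beside 81.5% called, 41.5% higher and 40.0% lower). The member that was higher in UCSD-AML1 in both comparisons was HIST2H2BE, by 1.72 ± 0.18 (SE) over TF-1 and 1.49 ± 0.18 over UT-7 on the log2 scale (adjusted p = 4.75e-11 and 1.34e-09).

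HIST3H2A was at 0 in all 4 UCSD-AML1 vehicle libraries and averaged 5.88 CPM in TF-1, at least 28.4-fold higher against a floor of 3 counts per library. It averaged 2.29 CPM in UT-7, at least 11.04-fold higher. HIST1H2BO and HIST1H3E each had a single count over the 4 UCSD-AML1 vehicle libraries. HIST1H2BO had 54 counts in TF-1, a ratio of 53.2 with an exact 95% counting interval of 9.16 to 2141. HIST1H3E had 46, a ratio of 45.3 with an interval of 7.74 to 1830. 

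Replacement genes differed between lines by member. H1F0 stood at 361, 367, 353 and 357 CPM in TF-1 and at 364, 358, 321 and 329 CPM in UCSD-AML1, but at 6.34, 7.17, 6.22 and 6.79 CPM in UT-7. TF-1 and UCSD-AML1 overlapped (log2 difference -0.07 ± 0.04, adjusted p = 0.0892), and UT-7 was lower than TF-1 by a log2 difference of -5.76 ± 0.06. H2AFY2, the second macroH2A gene, was read in UCSD-AML1 only, at 51.9 to 56.1 CPM under vehicle, at least 266.5-fold above TF-1 and at least 240.1-fold above UT-7 at the same floor. H2AFJ, an H2A gene that carries no stem-loop here, had 4.52 to 4.97 CPM in UCSD-AML1 and 0.190 to 0.423 CPM in UT-7, and was at 0 in TF-1. H2AFY2 and H2AFJ each met the 0.5 CPM rule in 8 libraries, and UCSD-AML1 alone was enough to bring them in. H2AFY averaged 1012 CPM in UCSD-AML1, above TF-1 by 1.07 ± 0.03 on the log2 scale (adjusted p = 4.25e-27).

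Per kilobase of the longest coding transcript, H2AFZ led the replacement class under vehicle with 325, 285 and 397 CPM per kb in TF-1, UT-7 and UCSD-AML1. H2AFY followed with 173, 145 and 363. H1F0 came next in TF-1 and UCSD-AML1 with 153 and 146, against 2.83 in UT-7, and H3F3B gave 95.5, 103 and 120.0. H2AFX gave 81.9, 76.4 and 96.8. The replication-dependent gene HIST1H2AC gave 8.27, 3.27 and 2.45 on this scale, HIST1H2BD 7.35, 7.74 and 2.44, and HIST2H2BE 0.893, 1.05 and 2.95. HIST1H2BK and HIST1H1C had no model beyond the coding sequence and were left out of this scale. The longest models of HIST2H2BE (2194 bases) and HIST1H2AC (1654 bases) run 1729 and 1114 bases past the stem-loop. Reads from a form that ends at the stem-loop are divided by too long a model. Replication-dependent and replacement genes can therefore not be compared directly on this scale.

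Under cyclocreatine, the linker replacement histones H1F0 and H1FX fell in all 3 lines, and they were the only members called in all 3. Calls were common among all genes tested: TF-1 had 56.0% called, UCSD-AML1 had 40.5% and UT-7 had 45.9%. The share of all genes called in every line is not given here, so being called in all 3 does not by itself set these members apart. H1.0 is the linker histone that accumulates in differentiated and resting cells. H1F0 in TF-1 went from 361, 367, 353 and 357 CPM to 108, 103, 105 and 107 CPM. Every treated library lay below every vehicle library, at a log2 fold change of -1.77 ± 0.04 (SE, adjusted p = 8.84e-30). In UT-7, where H1F0 was low, it went from 6.34, 7.17, 6.22 and 6.79 to 1.94, 1.39, 1.87 and 1.49 CPM, again without overlap (-1.97 ± 0.12, adjusted p = 5.33e-16). In UCSD-AML1 the change was smaller, from 364, 358, 321 and 329 to 250.2, 264, 259 and 259 CPM, and the groups did not overlap (-0.41 ± 0.04, adjusted p = 2.47e-11).

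H1FX, a linker histone encoded outside the clusters, followed with 56.4, 57.6, 55.8 and 54.9 CPM under vehicle against 28.5, 22.9, 27.1 and 20.3 in TF-1. It went from 37.4, 41.9, 39.4 and 39.2 to 19.6, 17.1, 15.5 and 19.1 CPM in UT-7, and from 156, 159.6, 136 and 152 to 106, 117, 117 and 123 CPM in UCSD-AML1. The groups did not overlap in any line. The log2 fold changes of H1FX were -1.19 ± 0.08, -1.15 ± 0.08 and -0.38 ± 0.06 (adjusted p = 1.42e-15, 1.21e-13 and 4.83e-06).

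For both linker genes the fall was smaller in UCSD-AML1 than in the other lines when the difference itself was tested. H1F0 gave 1.36 ± 0.05 against TF-1 and 1.56 ± 0.13 against UT-7 on the log2 scale (adjusted p = 3.58e-21 and 1.06e-11). H1FX gave 0.81 ± 0.10 and 0.76 ± 0.11 (adjusted p = 6.15e-08 and 7.89e-07). Between UT-7 and TF-1 the difference did not pass the test for H1F0 (-0.21 ± 0.14, adjusted p = 0.361) or H1FX (0.05 ± 0.11, adjusted p = 0.823). Called genes in these 3 tests of a difference were 29.1%, 23.0% and 27.5% of all genes.

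The antisense symbol H1FX-AS1 was called lower in TF-1 (-0.93 ± 0.28, adjusted p = 0.00421), from 1.09, 2.02, 1.43 and 1.74 to 0.886, 1.12, 0.643 and 0.649 CPM. It did not pass in UT-7 or UCSD-AML1. No source used here states whether counting used strand, and the overlap of H1FX-AS1 with H1FX was not examined. Whether its counts include reads of H1FX was not tested.

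The count over the 8 replacement members was 1 higher and 2 lower in TF-1, where 56.0% of all genes were called (26.7% higher and 29.3% lower). UT-7 had 1 higher and 2 lower (45.9% of all genes called), and UCSD-AML1 had 0 higher and 3 lower (40.5% called). For that 0 from edgeR, an unadjusted p under 0.05 gave 1, limma-voom 1 and DESeq2 0. Over all 8, a count of 3 lay below the share of all genes called in TF-1 and UT-7 and near it in UCSD-AML1. H2AFY2 had no reads in TF-1 or UT-7, and members with a log2 value or a bound on it numbered 6 in TF-1 and 7 in UT-7. Set against those members, 3 of 6 in TF-1 and 3 of 7 in UT-7 lay nearer to the share of all genes. With library totals in place of TMM scaling, the all-gene split in TF-1 moved from 3901 higher and 4272 lower to 3001 and 5225.

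H3F3B, a source of H3.3, went from 249, 263, 263 and 258 to 382, 330.0, 329.6 and 323 CPM in TF-1, with no overlap (0.40 ± 0.04, adjusted p = 2.9e-11). Without the first treated library the log2 fold change was 0.34. In UT-7 it rose by 0.12 ± 0.04 (adjusted p = 0.0114), from 278 to 281 under vehicle to 288 to 316 CPM. That call was lost with library totals (0.08, adjusted p = 0.0589) and without the fourth treated library (0.10, adjusted p = 0.0561). In UCSD-AML1 the vehicle range of 319 to 329 and the treated range of 325 to 343 CPM overlapped (0.04 ± 0.04, adjusted p = 0.459).

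The H2A.Z genes H2AFZ and H2AFV did not pass the test as fitted. H2AFZ had 302, 337, 309 and 325 CPM under vehicle and 385, 319, 326 and 313 CPM under cyclocreatine in TF-1 (0.08 ± 0.05, adjusted p = 0.16). The UT-7 libraries had 268 to 292 and 271 to 288 CPM (-0.01 ± 0.05, adjusted p = 0.884). In UCSD-AML1 the 2 groups did not overlap, at 375 to 405 and 406 to 429 CPM, and the test came close to its threshold (0.11 ± 0.05, adjusted p = 0.0538). That value passed with limma-voom, with library totals, with the line fitted alone and without the third vehicle library, at adjusted p of 0.000179 to 0.0474. The sign in TF-1 turned with library totals and with a length trend removed (-0.01 in both), and the H2AFZ value there passed without the fourth treated library (0.11, adjusted p = 0.0483). H2AFV gave log2 fold changes of 0.06, 0.04 and -0.01 in the 3 lines, with adjusted p of 0.199, 0.48 and 0.891.

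MacroH2A, a variant with a large additional domain found on silenced chromatin, was called lower in UCSD-AML1. H2AFY there went from 1029.7, 1013, 1006 and 1001 to 878, 889, 911 and 913 CPM, without overlap (-0.17 ± 0.03, adjusted p = 6.72e-05). Its values of -0.02 for TF-1 and -0.06 for UT-7 did not pass (adjusted p = 0.598 and 0.137). The difference between UCSD-AML1 and TF-1 passed the test (-0.15 ± 0.05, adjusted p = 0.0164), while that between UCSD-AML1 and UT-7 did not (-0.11, adjusted p = 0.104). The UCSD-AML1 call was lost when a length trend was removed (-0.09, adjusted p = 0.434), and the difference from TF-1 was lost in that setting and with library totals (adjusted p = 0.215 and 0.193). H2AFY was called lower with library totals in TF-1 and UT-7 as well (-0.10 in both, adjusted p = 0.0038 and 0.00622), and in TF-1 without the first treated library (-0.07, adjusted p = 0.016), while its TF-1 sign turned with the length trend removed (0.11). H2AFY2, measured there only, stayed within 51.9 to 57.2 CPM in all 8 libraries (0.06 ± 0.06, adjusted p = 0.538).

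H2AFX, the variant with both kinds of transcript, went from 135, 129, 133 and 132 to 204, 176, 187 and 165 CPM in TF-1 (0.47 ± 0.05, adjusted p = 1.58e-10). In UCSD-AML1 it went from 156, 158, 153 and 158 to 177, 180.4, 190.1 and 189 CPM (0.24 ± 0.05, adjusted p = 0.000113). Neither pair of groups overlapped. In UT-7 the vehicle libraries had 123, 124, 126 and 119 CPM and the treated ones 125, 117, 104 and 119.9, which overlapped (-0.08 ± 0.05, adjusted p = 0.196). With library totals that UT-7 value was called lower (-0.12, adjusted p = 0.0376). The UT-7 effect differed from that in TF-1 by -0.55 ± 0.07 (adjusted p = 1.51e-07), and the UCSD-AML1 effect exceeded that in UT-7 by 0.32 ± 0.07 (adjusted p = 0.000641).

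**Figure D2:**
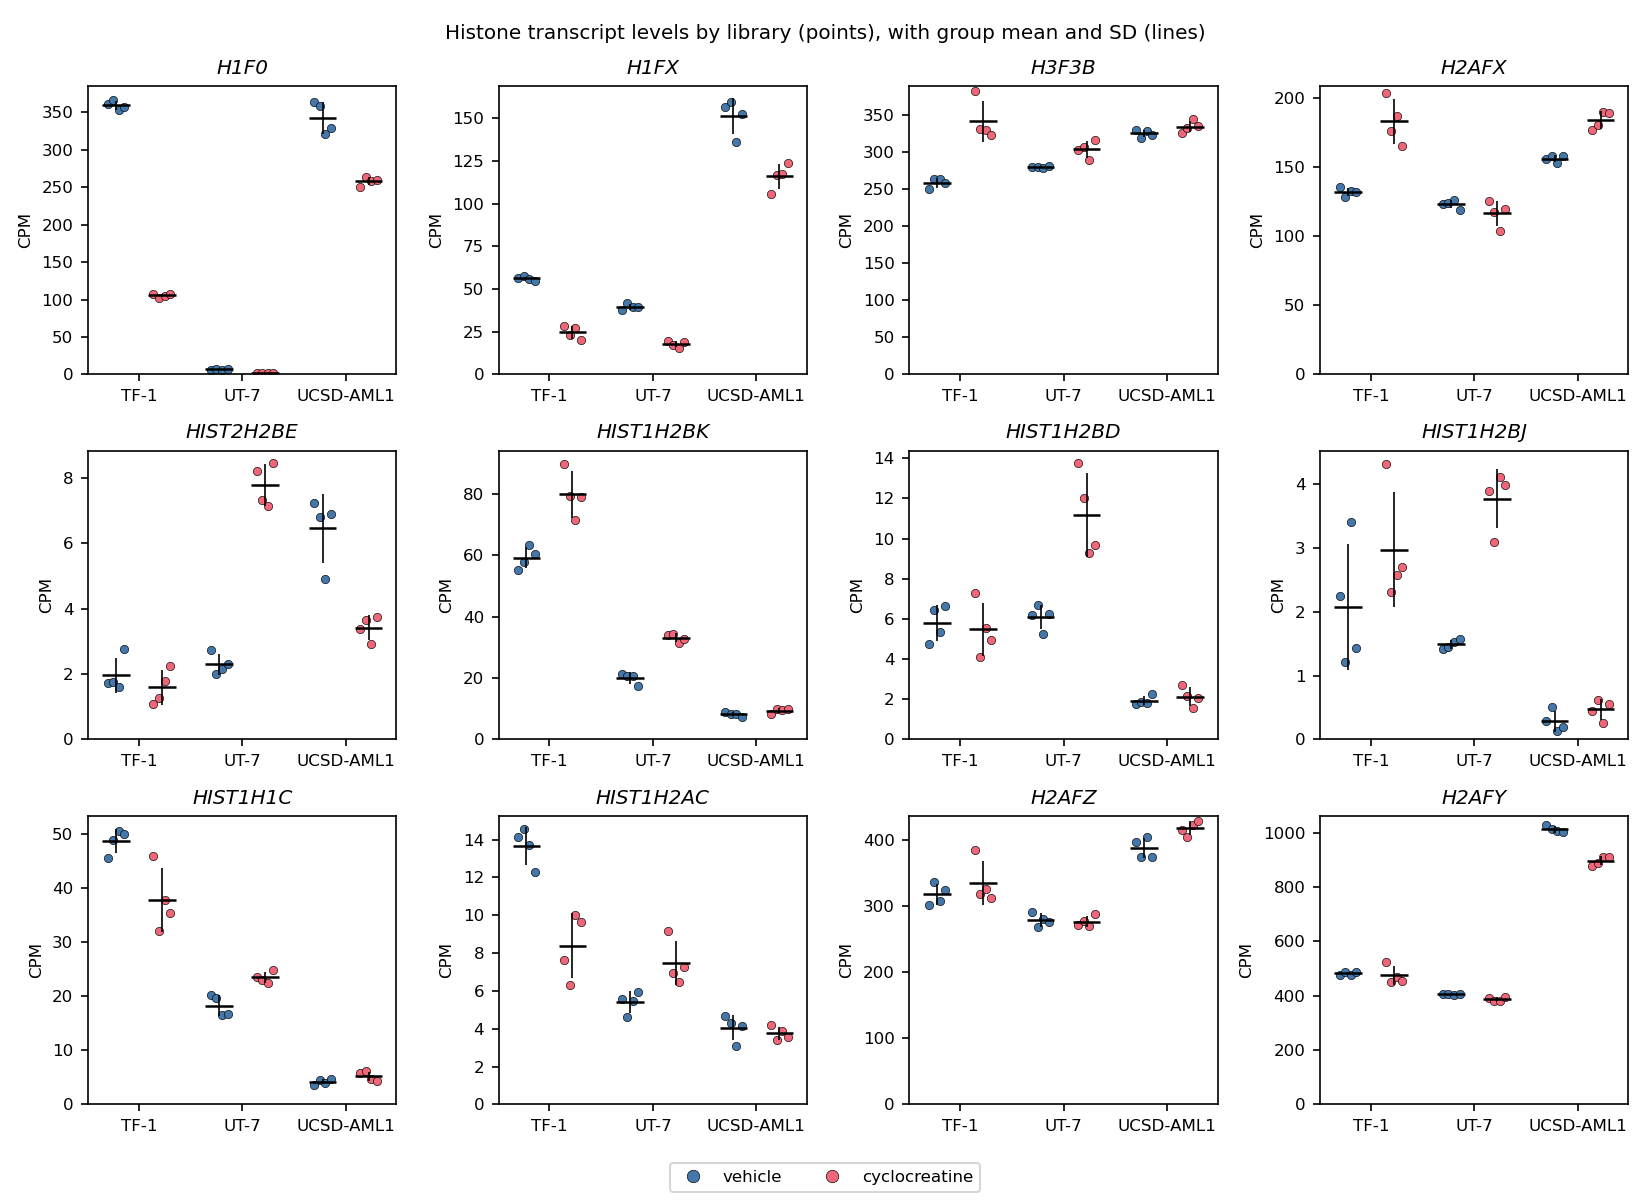
CPM of 12 members in each of the 24 libraries (points), with the group mean and SD as lines, by line and treatment. H1F0 and H1FX are lower in every treated group, HIST2H2BE is higher in treated UT-7 and lower in treated UCSD-AML1, and H2AFZ changes little in any line.

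Calls among the replication-dependent members were counted by line. In UT-7, 12 of 27 members rose and 0 fell, against 22.5% and 23.3% of all genes, and the class median log2 fold change was 0.72 beside an all-gene median of 0. No member was lower at an unadjusted p under 0.05, nor by DESeq2 or limma-voom. In TF-1, 1 rose and 6 fell (median -0.26), both below the shares of all genes called there (26.7% and 29.3%). In UCSD-AML1, 2 rose and 1 fell, against 19.1% and 21.3% of all genes, with a median of 0.95 that rests mostly on genes near 0.1 CPM under vehicle. By sign alone, regardless of the test, UT-7 had 24 of 27 values above 0, TF-1 had 5 and UCSD-AML1 had 22.

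**Figure D3:**
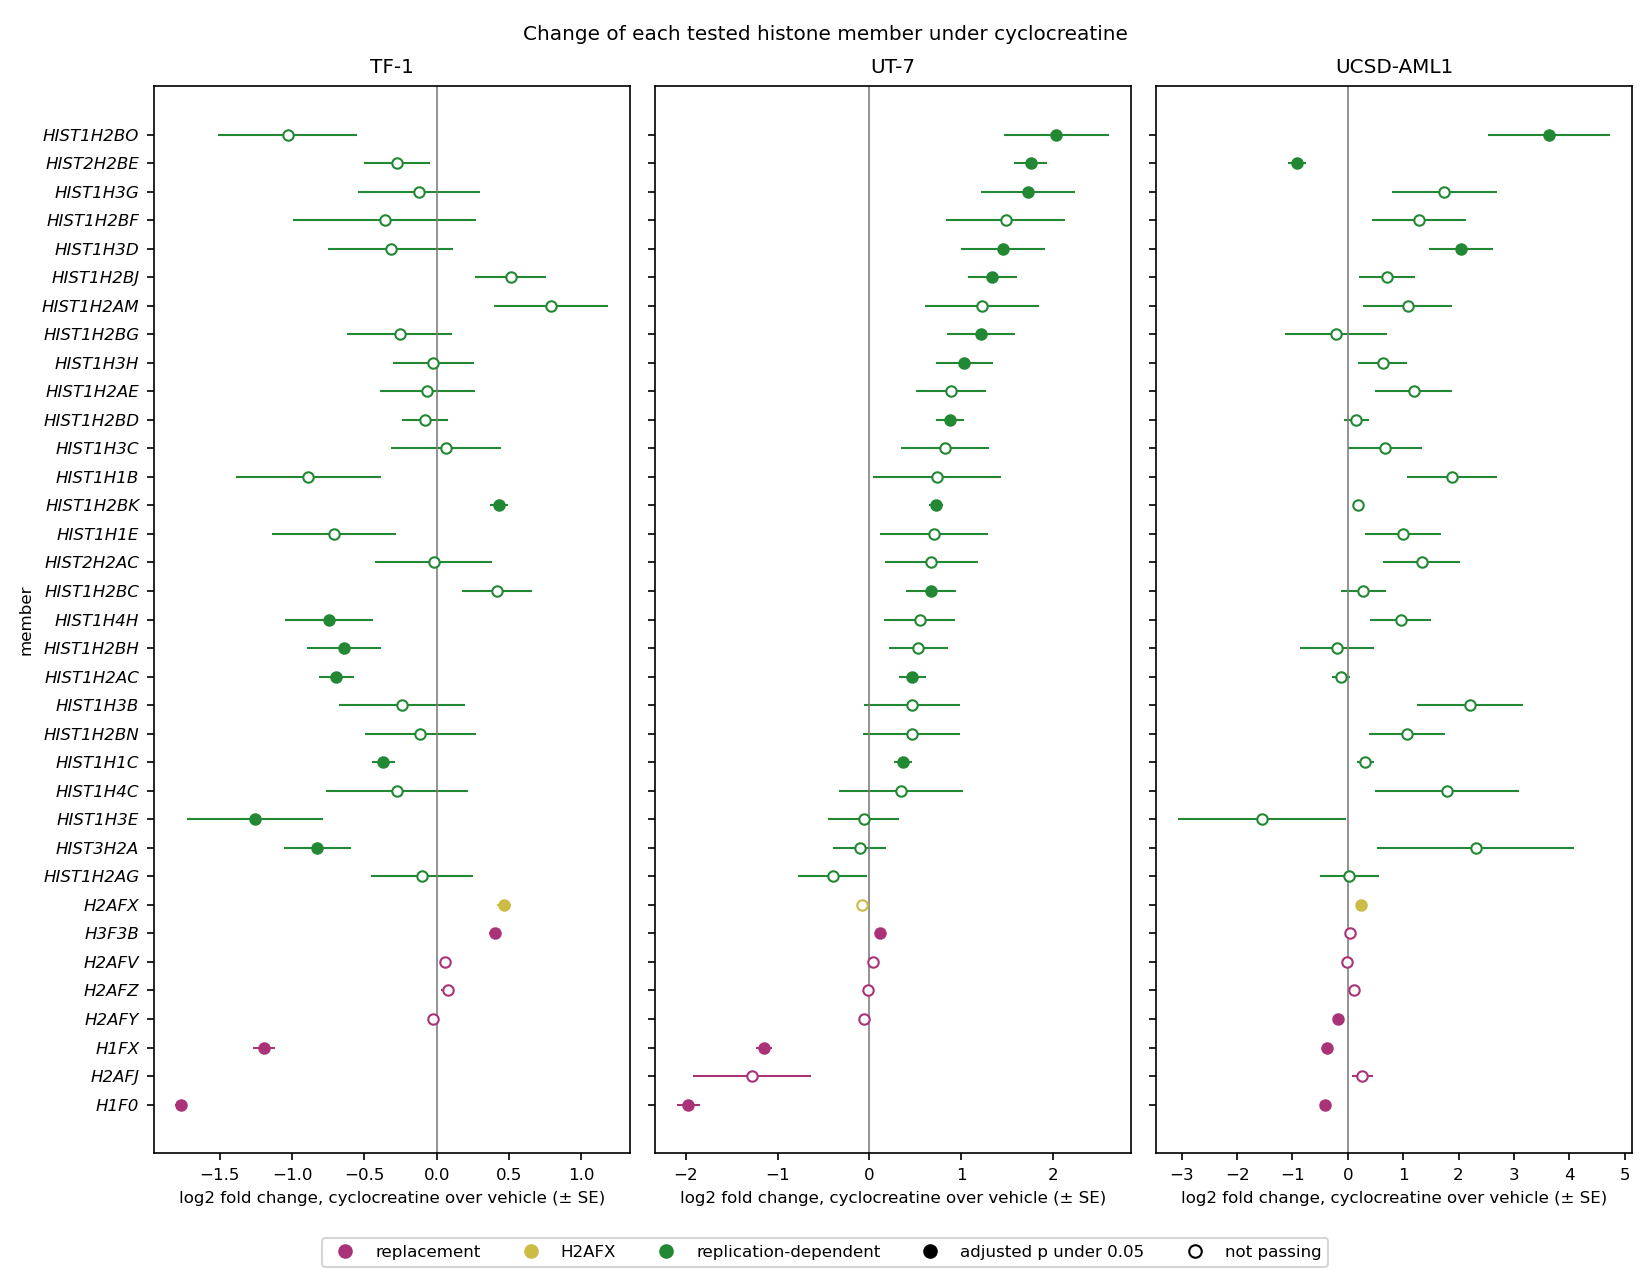
Log2 fold change (cyclocreatine over vehicle, ± SE) for the tested members, by line. Filled points passed an adjusted p of 0.05 and open points did not. H2AFY2 and H1FX-AS1 are not drawn, and the horizontal scales differ between panels. The replication-dependent genes (green) lie mostly right of 0 in UT-7 and left of 0 in TF-1.

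HIST2H2BE, an H2B gene of the chromosome 1 cluster with a long polyadenylated form, was called in opposite directions in UT-7 and UCSD-AML1. In UT-7 it went from 2.749, 2.001, 2.16 and 2.31 CPM to 8.21, 7.33, 7.14 and 8.46 CPM. Every treated library exceeded every vehicle library, at a log2 fold change of 1.76 ± 0.18 (adjusted p = 1.81e-10). In UCSD-AML1 it went the other way, from 7.22, 6.82, 4.90 and 6.91 to 3.37, 3.67, 2.91 and 3.75 CPM without overlap (-0.92 ± 0.17, adjusted p = 2.27e-05).

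In TF-1, HIST2H2BE had 1.73, 1.75, 1.61 and 2.76 CPM under vehicle and 1.08, 1.26, 1.78 and 2.25 under cyclocreatine. These groups overlapped (-0.27 ± 0.23, adjusted p = 0.32). The test of the difference gave 2.03 ± 0.29 for UT-7 over TF-1 (adjusted p = 1.6e-06) and -2.68 ± 0.25 for UCSD-AML1 over UT-7 (adjusted p = 7.66e-11). For UCSD-AML1 over TF-1 it did not pass (-0.65 ± 0.28, adjusted p = 0.0853).

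HIST1H2BK, the most abundant replication-dependent gene, rose in TF-1 and UT-7. It went from 55.3, 57.9, 63.3 and 60.6 to 89.9, 79.3, 71.5 and 78.9 CPM in TF-1 (0.43 ± 0.06, adjusted p = 2.5e-07), the one member of its class called higher there. In UT-7 it went from 21.4, 20.8, 20.8 and 17.3 to 34.1, 34.4, 31.4 and 32.8 CPM (0.72 ± 0.08, adjusted p = 4.11e-10). Neither pair of groups overlapped, whereas the UCSD-AML1 ranges of 7.38 to 8.93 and 8.13 to 10.1 CPM did (0.19 ± 0.10, adjusted p = 0.146).

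The UT-7 rise of HIST1H2BK exceeded that in TF-1 by 0.29 ± 0.10 (adjusted p = 0.0243) and the UCSD-AML1 value by 0.53 on the log2 scale (-0.53 ± 0.13 for UCSD-AML1 minus UT-7, adjusted p = 0.00177). The first of these was lost when any 1 of 4 libraries was left out, with log2 values of 0.23 to 0.27 and adjusted p of 0.0520 to 0.0877 (the third vehicle and the third treated library of TF-1, and the fourth vehicle and second treated library of UT-7).

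HIST1H1C, which encodes the linker histone H1.2, and HIST1H2AC, an H2A gene, moved in opposite directions in TF-1 and UT-7. HIST1H1C had 45.6, 48.9, 50.5 and 50.02 CPM under vehicle and 45.9, 32.0, 37.7 and 35.3 under cyclocreatine in TF-1, where only the first treated library reached the vehicle range (-0.37 ± 0.08, adjusted p = 0.000159). In UT-7 it went from 20.2, 19.7, 16.4 and 16.8 to 23.6, 23.1, 22.4 and 24.9 CPM without overlap (0.36 ± 0.09, adjusted p = 0.00158). In UCSD-AML1, at 3.64 to 4.65 and 4.38 to 6.10 CPM, it did not pass (0.32 ± 0.15, adjusted p = 0.086). That value passed with the line fitted alone (0.33, adjusted p = 0.0344) and without the fourth treated library (0.39, adjusted p = 0.0483).

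HIST1H2AC went from 14.1, 14.6, 13.7 and 12.3 to 7.66, 6.29, 9.995 and 9.63 CPM in TF-1, without overlap (-0.69 ± 0.12, adjusted p = 6.95e-06). In UT-7 it went from 5.57, 4.62, 5.46 and 5.97 to 9.14, 6.94, 6.49 and 7.25 CPM, also without overlap (0.47 ± 0.15, adjusted p = 0.00765). The UT-7 call was lost without the first treated library (0.35, adjusted p = 0.0631). The UT-7 and TF-1 effects differed by 1.16 ± 0.19 for HIST1H2AC (adjusted p = 1.23e-05) and by 0.73 ± 0.12 for HIST1H1C (adjusted p = 2.2e-05).

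By family, 7 of 10 H2B genes were called higher in UT-7, 3 of 6 H3 genes, 1 of 3 H1 genes and 1 of 6 H2A genes, and the remaining family, H4, had 2 genes tested and neither called. Of all genes, 22.5% were called higher in UT-7, so the H2A count is no higher than that share. HIST1H2BD went from 6.20, 6.69, 5.27 and 6.26 to 13.8, 12.0, 9.30 and 9.67 CPM (0.87 ± 0.15, adjusted p = 6.57e-06). HIST1H2BJ went from 1.41, 1.45, 1.52 and 1.57 to 3.89, 3.08, 4.11 and 3.98 CPM (1.34 ± 0.26, adjusted p = 5.28e-05). Treated and vehicle libraries did not overlap for either gene.

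HIST1H2BG went from 0.352, 0.828, 0.635 and 0.820 to 1.66, 1.85, 1.44 and 1.21 CPM in UT-7, also without overlap (1.21 ± 0.37, adjusted p = 0.00615). HIST1H2BO gave 2.04 ± 0.57 and HIST1H2BC 0.67 ± 0.27 (adjusted p = 0.00342 and 0.0422). The HIST1H2BC call was lost with DESeq2 (adjusted p = 0.0505), with library totals, without a filter, with the length trend removed, and when any of 5 single UT-7 libraries was left out. Among H3 genes, HIST1H3G gave 1.72 ± 0.51, HIST1H3D 1.46 ± 0.46 and HIST1H3H 1.03 ± 0.31 (adjusted p = 0.00528, 0.00833 and 0.00629). HIST1H3D was lost without the second vehicle library or the first treated library of UT-7 (adjusted p = 0.0501 and 0.0814).

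Members called higher in UT-7 were found with and without each sequence feature. Of the 13 tested replication-dependent genes with an octamer in the window, 7 were called higher (median log2 fold change 0.89), against 5 of 13 without one (median 0.70). Of the 13 with more than 100 bases after the stem-loop, 6 were called higher (median 0.55), against 1 of 2 with up to 100 bases (median 0.88). Among the 5 head-to-head pairs that share an octamer, the H2B gene was called higher in each, and its H2A partner was called higher in 1. That pair was HIST1H2BC and HIST1H2AC, at 0.67 and 0.47. HIST1H2AG, the partner of HIST1H2BJ, gave -0.40 ± 0.37 (adjusted p = 0.407) beside 1.34, and HIST2H2AC, the partner of HIST2H2BE, gave 0.67 ± 0.51 (adjusted p = 0.299) beside 1.76. HIST1H2AE gave 0.89 ± 0.38 (adjusted p = 0.057) beside 1.21 for HIST1H2BG, and HIST1H2AM gave 1.23 ± 0.62 (adjusted p = 0.105) beside 2.04 for HIST1H2BO. Differences within these pairs were not tested, and no match or absence in these windows speaks for the factor that binds there.

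In TF-1 the 6 members that fell were HIST1H1C, HIST1H2AC, HIST3H2A (-0.83 ± 0.23, adjusted p = 0.00262), HIST1H3E (-1.26 ± 0.47, adjusted p = 0.0222), HIST1H2BH (-0.64 ± 0.26, adjusted p = 0.0319) and HIST1H4H (-0.75 ± 0.30, adjusted p = 0.0351). HIST3H2A, the H2A gene of the smallest cluster, went from 5.24, 7.39, 4.89 and 5.99 to 3.23, 3.49, 5.14 and 1.70 CPM, with the third treated library inside the vehicle range. Leaving out 1 TF-1 library ended the call of HIST1H3E for 3 choices of library, of HIST1H2BH for 4 and of HIST1H4H for 6, with adjusted p of 0.0521 to 0.171. The first treated library and the second vehicle library were among them for all 3 genes. Fitting TF-1 on its own left 3 members lower in place of 6, and so did leaving out the second vehicle library.

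In UCSD-AML1 the 2 members called higher were HIST1H2BO and HIST1H3D, both very low. HIST1H2BO had 1 count over the 4 vehicle libraries and 18 over the treated ones, a ratio of 18.4 with a counting interval of 2.91 to 767 (adjusted p = 0.00737), and the groups overlapped. HIST1H3D went from 0.114, 0.125, 0.276 and 0.133 to 0.508, 0.622, 0.582 and 1.04 CPM, without overlap (2.05 ± 0.58, adjusted p = 0.0042). The count of 2 became 6 without the third treated library, 4 without the fourth, 4 with DESeq2 and 1 when the line was fitted on its own.

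Sums over genes showed which members carried the change. The 6 most abundant replication-dependent genes went from 58.4, 56.2, 52.2 and 50.9 to 91.8, 86.1, 78.0 and 85.0 CPM in UT-7, and the other 25 from 10.4, 13.5, 11.4 and 18.05 to 29.9, 22.8, 23.1 and 19.3 CPM. Neither pair overlapped, and the full sum averaged 67.7 ± 2.85 and 109 ± 9.05 CPM, a ratio of 1.61. In UCSD-AML1 the top 6 overlapped, at 22.0 to 26.2 and 22.6 to 25.1 CPM, while the other 25 went from 3.24, 3.82, 3.59 and 4.19 to 8.002, 8.84, 5.04 and 8.61 CPM, a ratio of 2.06 without overlap. In TF-1 both sums overlapped between the groups, and the full sum averaged 162 ± 8.84 and 159.5 ± 14.3 CPM (SD, n = 4 each).

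The linker pair H1F0 and H1FX together went from 416 ± 6.78 to 130.2 ± 4.95 CPM in TF-1. Their sum in UT-7 went from 46.1 ± 2.19 to 19.5 ± 1.89, and that of UCSD-AML1 from 494 ± 30.4 to 374 ± 12.3, with no overlap in any line. For the other 6 replacement genes, TF-1 averaged 1233 and 1333 CPM, UT-7 1089.9 and 1097, and UCSD-AML1 1883 and 1810.2, with overlap in UT-7. Replication-dependent counts made up 5.63% of the 2 classes in vehicle UT-7 and 8.89% ± 0.697 in treated UT-7. It was 9.83% ± 0.272 in treated TF-1 and 1.43% ± 0.134 in treated UCSD-AML1. These sums carry no test.

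**Figure D4:**
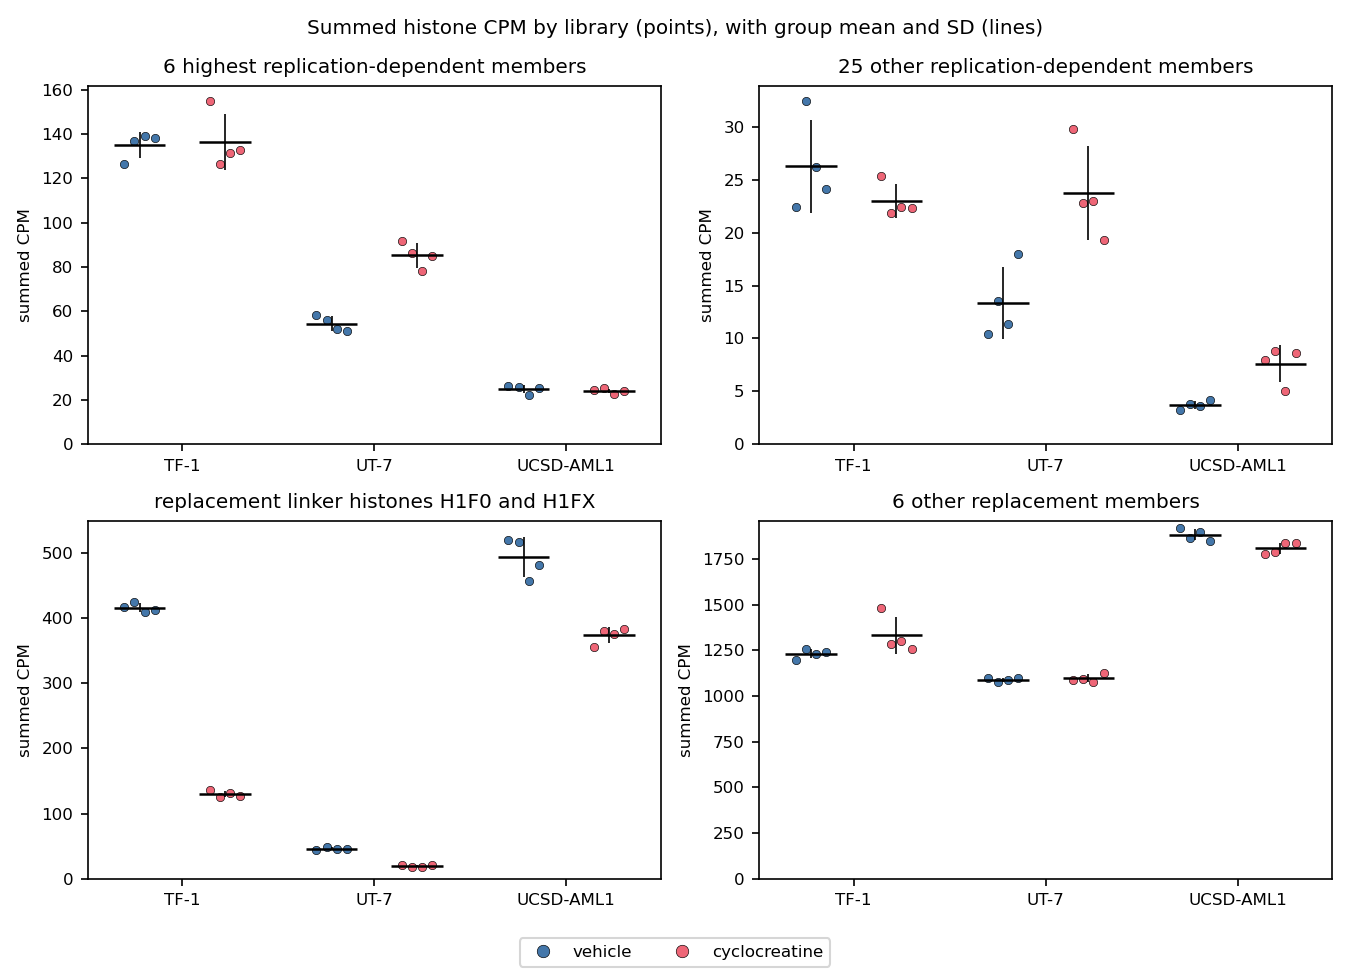
Summed CPM per library (points, with group mean and SD) for the 6 highest and the 25 other replication-dependent members, for H1F0 with H1FX, and for the 6 other replacement members. Both replication-dependent sums separate the groups in UT-7, only the 25 low members do so in UCSD-AML1, and the linker pair is lower in all 3 treated groups.

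Tests of the difference in effect placed UT-7 apart from TF-1 for 11 of 27 replication-dependent members, all with the larger value in UT-7 (median difference 0.96, beside 13.2% of all genes called in that direction). By edgeR at an unadjusted p under 0.05, by DESeq2 and by limma-voom, 0 had the smaller value in UT-7. The count of 11 was 6 without the first vehicle library or without the first treated library of UT-7. UCSD-AML1 exceeded TF-1 for 6 members (median 0.69, beside 14.3% of all genes), a count that was 3 without the third vehicle library of UCSD-AML1. It was below UT-7 for 3 of 27, near the 11.5% of all genes called in that direction, namely HIST2H2BE, HIST1H2BK and HIST1H2AC (-0.58 ± 0.22, adjusted p = 0.0499, lost with limma-voom, library totals, RLE factors, either other filter and 12 of the single libraries left out, at adjusted p of 0.0522 to 0.137). With library totals in place of TMM, calls in the higher direction were 58.5% of all calls for UT-7 minus TF-1 in place of 47.9%, and 67.5% for UCSD-AML1 minus TF-1 in place of 49.2%.

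Genes that make, process and place histones were examined beside the members. They were listed with earlier results of these data known, so the counts describe them and support nothing further. Their counts stand beside the shares of all genes called higher and lower, which were 26.7% and 29.3% in TF-1, 22.5% and 23.3% in UT-7, and 19.1% and 21.3% in UCSD-AML1. In UT-7, 30 of 34 genes of G1/S and DNA replication fell and 1 rose (median -0.32). MCM3, MCM7 and MCM4, subunits of the replicative helicase, gave -0.65 ± 0.03, -0.62 ± 0.04 and -0.53 ± 0.03. In TF-1 12 of the 34 rose and 15 fell, with POLA1, the catalytic subunit of DNA polymerase alpha, at -0.82 ± 0.07 and TYMS, the thymidylate synthase, at 0.34 ± 0.04. In UCSD-AML1 10 rose and 13 fell. TYMS there was at 0.41 ± 0.04 and the licensing factor CDT1 at 0.35 ± 0.04, while PCNA, the sliding clamp of DNA polymerases, was at -0.24 ± 0.04. Whether this list bears on the histone counts was not tested.

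Of 18 genes for histone gene transcription and mRNA processing, 2 rose and 12 fell in TF-1, while UT-7 and UCSD-AML1 each had 1 higher and 10 lower. SLBP, the stem-loop binding protein, fell in UT-7 (-0.60 ± 0.04, adjusted p = 2.23e-15), and NPAT, the coactivator of clustered histone genes, fell in TF-1 (-0.54 ± 0.06, adjusted p = 1.57e-09). SRRT, a partner of the cap-binding complex, fell in all 3 lines, with log2 values of -0.74 for TF-1, -0.56 for UT-7 and -0.27 for UCSD-AML1. CCNE2, a cyclin E that drives entry into S phase, gave -0.90 ± 0.08 in UT-7 and -0.61 ± 0.07 in UCSD-AML1. Of 10 genes of histone mRNA decay, TF-1 had 5 lower, UT-7 had 4 and UCSD-AML1 had 5. ZCCHC11, a uridylyltransferase, rose in TF-1 (0.20 ± 0.05) and UT-7 (0.45 ± 0.05).

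Of 10 replication-coupled chaperones, TF-1 had 5 higher and 4 lower, UT-7 had 1 and 6, and UCSD-AML1 had 4 and 4. NASP, a chaperone for free H3 and H4, fell in TF-1 (-0.21 ± 0.03) and UT-7 (-0.38 ± 0.03), and CHAF1A, the large CAF-1 subunit, fell in UT-7 (-0.40 ± 0.04). MCM2, which also binds histones, gave 0.38 ± 0.03 in TF-1 and 0.23 ± 0.03 in UCSD-AML1, against -0.20 ± 0.03 in UT-7.

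Of 18 genes for replacement histone deposition and exchange, TF-1 had 5 higher and 8 lower, UT-7 had 4 and 7, and UCSD-AML1 had 3 and 5. The counts higher lay near the shares of all genes in each line. HIRA, which deposits H3.3, fell in TF-1 (-0.62 ± 0.05) and UT-7 (-0.50 ± 0.05), while H3F3B rose in both. HJURP, the chaperone of the centromeric H3, rose in TF-1 (0.56 ± 0.05) and UT-7 (0.75 ± 0.05). ANP32E, which removes H2A.Z, fell in UCSD-AML1 (-0.31 ± 0.04), where H2AFZ did not pass. RUVBL1, an ATPase of the H2A.Z exchange complexes, fell in all 3 lines by log2 values of -0.58, -0.45 and -0.39. Of 9 general chaperones, 6 rose in TF-1, with NPM1 at 0.50 ± 0.03. UT-7 had 4 higher and 2 lower, and UCSD-AML1 had 1 of each.

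**Figure D5:**
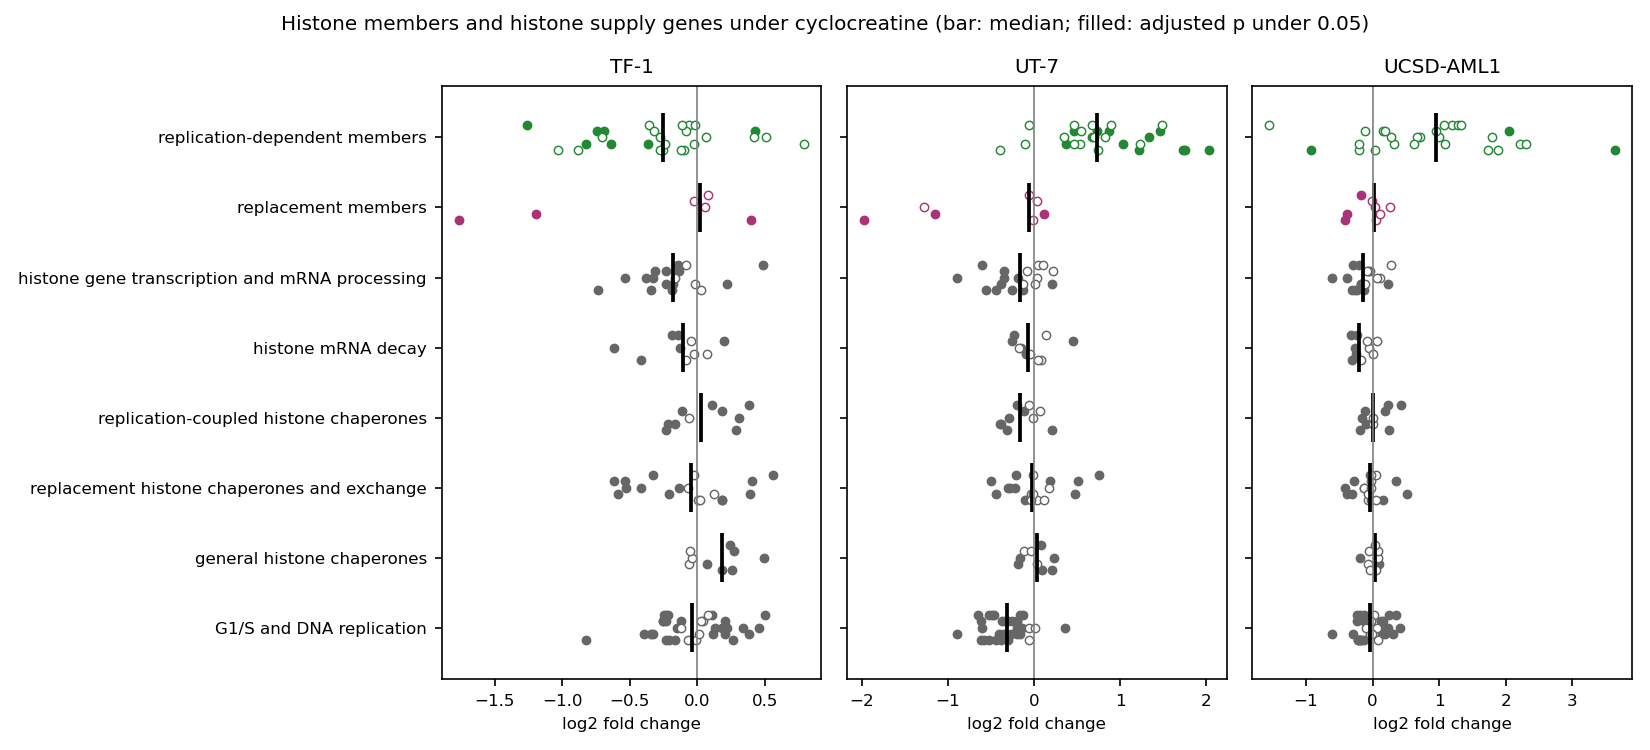
Log2 fold change under cyclocreatine for replication-dependent members, replacement members and 6 lists of histone supply genes, by line, with a bar at each median (filled points passed an adjusted p of 0.05). In UT-7 the replication-dependent median is 0.72 while that of the G1/S and DNA replication list is -0.32, and the horizontal scales differ between panels.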

How the data were processed

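RNA from 24 libraries (3 lines, 2 arms, 4 libraries each) was extracted with RNeasy and made into Illumina libraries, per the labels' protocols. The authors deposited a table of whole-number counts per gene symbol for each library. FastQC, TopHat2, RSEM, GRCh37 and hg19 are named in the submitters' processing notes without roles or versions. No source used here states the strand setting or the treatment of reads shared between copies, and either can change counts of near-identical histone genes.

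From these counts, edgeR 4.0.16 (R 4.3.3) fitted all 24 libraries with 1 mean per group (filterByExpr with a minimum count of 10 and a minimum total of 15, TMM scaling, quasi-likelihood F test). This kept 14588 genes, and p-values were adjusted by Benjamini-Hochberg over all of them, with 0.05 as the threshold. Every adjusted p is from this test unless another tool is named. An SE is the absolute log2 fold change divided by the square root of F. Printed CPM are counts scaled by library total and TMM factor, whereas the 0.5 CPM rule that chose members used library totals alone. Interval and floor values cover counting error only (95% exact intervals, floor of 3 counts per library). Python 3.11.15, numpy 2.4.6, pandas 2.3.3 and matplotlib 3.10.9 made the sums and figures.

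Members and gene lists were chosen with earlier results of these data known. Any retained member could be named. Values in every library were given for HIST2H2BE, HIST1H2BK, H2AFX, the 4 most abundant members of each class, and the 3 called members per direction and line with the largest change among those at 1 CPM or more. Supply genes were up to 4 per list and line with the smallest p. Some further members are named for their calls.

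Alternatives were DESeq2 1.42.0, limma-voom (limma 3.58.1), RLE factors, library totals, 2 other filters, removal of a gene length trend, each line fitted alone, a replicate block, other class definitions, and each library left out. On simulated counts for the TF-1 comparison (14109 genes), the test recovered 80% of 100 genes changed 1.5-fold and 88% of 100 changed 2-fold. Of its calls, 8.70% were false, a share above the adjusted p threshold of 0.05. The simulation changed 100 genes at each size, whereas 8173 of 14588 genes were called in TF-1. Recovery is not given by expression level, and 25 of the 31 replication-dependent members averaged under 2 CPM. These rates therefore need not hold for the data or for such members.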

Additional observations from a re-analysis of the deposited data

Results flagged for a closer look

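Single libraries stood apart from their group mates by Dixon's criterion in 6 of the 102 groups of 4 examined, and chance gives about 1 in 20. HIST2H2BE had 2.76 CPM in the fourth TF-1 vehicle library against 1.61 to 1.75 in the others. HIST1H2BK had 17.3 CPM in the fourth UT-7 vehicle library against 20.8 to 21.4. H3F3B had 382 CPM in the first TF-1 cyclocreatine library against 323 to 330.0. HIST1H2BG had 0.129 CPM in the third UCSD-AML1 cyclocreatine library against 0.0622 to 0.0695, a difference between single reads. The replication-dependent sum was 63.5 CPM in the third UT-7 vehicle library against 68.8 to 69.7, and 25.6 CPM in the third UCSD-AML1 vehicle library against 29.5 to 29.7.

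The effect of cyclocreatine differed between lines, by edgeR's quasi-likelihood test of the difference itself, for 22 pairings of a named member with 2 lines. For UT-7 minus TF-1 the log2 differences were 2.03 for HIST2H2BE, 1.47 for HIST1H2BG, 1.16 for HIST1H2AC, 0.96 for HIST1H2BD, 0.73 for HIST1H1C, 0.29 for HIST1H2BK, -0.28 for H3F3B and -0.55 for H2AFX. The HIST1H2BG difference (adjusted p = 0.0308) was lost when any 1 of 7 libraries was left out. For UCSD-AML1 minus TF-1 they were 1.36 for H1F0, 1.29 for H1FX-AS1, 0.81 for H1FX, 0.69 for HIST1H1C, 0.58 for HIST1H2AC, -0.15 for H2AFY, -0.23 for H2AFX and -0.36 for H3F3B. The HIST1H2AC difference (adjusted p = 0.0306) was lost when any 1 of 5 libraries was left out, and that of H2AFX was lost with library totals (-0.16, adjusted p = 0.0672). For UCSD-AML1 minus UT-7 they were 1.56 for H1F0, 0.76 for H1FX, 0.32 for H2AFX, -0.53 for HIST1H2BK, -0.58 for HIST1H2AC and -2.68 for HIST2H2BE.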

How the results depend on the processing

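Of the comparisons across settings, 1306 values of single members and 1131 counts or sums kept their direction and their side of the threshold (counts within 1.5 times), while 67 values of single members lost their call, 15 gained one and 11 changed sign. A further 35 counts or sums moved by more and 1 sum changed sign. Members outside the 14 with values given in every library entered this tally only where called in the main fit. The same held for every difference in effect. Such values could lose a call but not gain one, so losses and gains here cannot be set against each other. The causes of these changes were not tested. Low counts limit most replication-dependent members, above all in UCSD-AML1.

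In TF-1, replication-dependent members called higher numbered 3 with limma-voom, and those called lower numbered 3 with the line fitted alone. In UT-7, 0 replacement members were higher with library totals. In UCSD-AML1, replication-dependent members called higher numbered 4 with DESeq2 and 1 with the line fitted alone, and 1 replacement member was higher with limma-voom, library totals or the line fitted alone. Under vehicle, 2 replacement members were lower in UCSD-AML1 than in TF-1 with DESeq2 or RLE factors. For UCSD-AML1 minus TF-1 effects, 1 replacement member was lower with library totals or the length trend removed, and 1329 of all genes were lower with library totals. For UCSD-AML1 minus UT-7 effects, 1 replacement member was lower with the length trend removed. The change in the log2 ratio of the replication-dependent to the replacement sum was 0.15 in TF-1 and 0.71 in UT-7 as computed for the report. It was 0.39 and 0.26 with H2AFX counted among the former, and turned to -0.13 in TF-1 without the most abundant member of each class.

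Signs turned, in values that had not passed the test, for HIST1H2BK in UCSD-AML1 (-0.011, length trend removed), H2AFY in TF-1 (0.11, length trend removed), H2AFZ in TF-1 (-0.0051 with library totals and -0.011 with the length trend removed) and HIST1H2BG in UCSD-AML1 (0.20, limma-voom).

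With 1 library left out at a time, TF-1 replication-dependent members ranged from 1 to 2 higher and from 3 to 6 lower, and replacement members from 1 to 2 higher. UT-7 replication-dependent members ranged from 9 to 15 higher and replacement members from 0 to 1 higher. UCSD-AML1 replication-dependent members ranged from 2 to 6 higher and replacement members from 0 to 1 higher. Replacement members lower in UCSD-AML1 than in TF-1 under vehicle ranged from 1 to 2. Replication-dependent members lower under vehicle ranged from 13 to 19 for UT-7 minus TF-1 and from 25 to 27 for UCSD-AML1 minus TF-1. For UCSD-AML1 minus UT-7 they ranged from 15 to 20. Differences in effect ranged from 6 to 13 higher members for UT-7 minus TF-1, and from 3 to 6 higher and 0 to 1 lower for UCSD-AML1 minus TF-1. Log2 fold changes ranged from -0.25 to 0.025 for HIST1H2BD and from -0.075 to 0.0016 for H2AFY in TF-1, from -0.031 to 0.010 for H2AFZ in UT-7, and from -0.74 to 0.051 for HIST1H2BG in TF-1 and from -0.56 to 0.82 in UCSD-AML1.

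The main fit treated the libraries as unpaired, and correlations of same-numbered deviations were small, from -0.05 to 0.07. With the replicate block, 2 replication-dependent members were higher in TF-1. Vehicle libraries correlated best with their own number in 3 of 4 cases in UCSD-AML1 and in 0 of 4 in each other line.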
